A study of Homo sapiens with 8 samples.

Results

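The genes described here encode the enzymes that add methyl groups to histones and arginine residues or take them off histones again. They were chosen by gene symbol alone, as the probe sets that the platform annotation gives to a single symbol beginning with KMT, KDM, SETD or PRMT and a digit, together with EZH1, EZH2, EHMT1, EHMT2, SUV39H1, SUV39H2, SETDB1, SETDB2, DOT1L, CARM1, NSD1, NSD2 and NSD3. The rule found 59 of the 19775 genes that the arrays name, of which 56 are protein-coding and 3, KDM7A-DT, KMT2E-AS1 and PRMT5-AS1, are noncoding RNA genes, which are counted apart. The rule used no measured value, other than to represent each gene by the probe set with the highest mean over the 8 arrays.

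The cells were A549, an established human lung adenocarcinoma line, and the study addressed the epithelial-mesenchymal transition (EMT), the loss of epithelial character that cytokines can induce in these cells. All cultures were kept in the same medium with reduced serum and fell into 4 groups of 2 arrays. The 2D control was a monolayer given vehicle, and the 2D treated group was a monolayer given tumor necrosis factor (TNF, 10 ng/ml) and transforming growth factor beta (TGFβ, 2 ng/ml). The 3D control and 3D treated groups were spheroids formed in hanging drops and given the same vehicle or cytokines, in 2 rounds of 48 h. All 4 groups come from 1 cell line, so other lines were not compared. The study's methods call the arrays of a group technical duplicates whereas the deposited design calls them biological replicates, and p-values then measure only the spread between these arrays, which may be technical.

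Levels are deposited log2 values made with GCRMA, a method that subtracts background and summarizes the probes of a probe set, and a difference of 1 on this scale is a fold of 2. No value lies below 2.23, and the array medians of 2.43 to 2.50 lie just above that floor. Of the 56 protein-coding genes, 53 were above the array median on all 8 arrays, and KDM4D, PRMT6 and PRMT8 were above it on none. Differences were tested with limma over 54613 probe sets, and a gene was called higher or lower at a Benjamini-Hochberg adjusted p under 0.05. The arrays measure RNA from bulk cultures, in which fewer cells of a type and less RNA per cell cannot be told apart. Of 8 markers chosen for A549 cells, 8 were above the median on every array. They are the epithelial genes KRT8, KRT18, KRT19, EPCAM and CDH1 and the enzyme genes NQO1, AKR1C1 and ALDH1A1. In contrast, 3 of 4 endothelial, 2 of 4 fibroblast and 2 of 4 leukocyte markers were above it on none, PTPRC and CD3E among them. The remaining leukocyte markers, CD14 (5.28 to 9.69) and LYZ (3.13 to 8.64), and the endothelial marker PECAM1 were above it on all 8 arrays, and the fibroblast markers LUM on 6 and PDGFRA on 1.

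Methylation of histone lysines works as a set of marks that writers place and erasers remove. SET domain enzymes and DOT1L are the writers, the flavin-dependent KDM1 enzymes and the Jumonji C (JmjC) enzymes are the erasers, and the mark's meaning depends on the residue, with H3K4 methylation typical of active promoters, H3K36 and H3K79 methylation of transcribed gene bodies, and H3K9 and H3K27 methylation of silenced chromatin. The protein arginine methyltransferases (PRMTs) modify histones and many other proteins, and all of these methyltransferases use S-adenosylmethionine as the methyl donor.

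In treated spheroids KDM6B, KDM7A, KDM1B and CARM1 rose, and EHMT2, SETDB1, SETD7, SETD9, PRMT5 and PRMT9 fell. Of the 56 genes, 4 rose, 6 fell and 46 did not pass in 3D treated against 3D control cultures, which is 17.9% called, beside 16.4% of all 19775 genes. By direction, the background was 5.53% of all genes higher and 10.8% lower. Among genes above the array median on every array, 18.9% of the 53 enzymes and 25.6% of 11910 genes were called. The share of called enzymes was thus close to that of all genes, and below that of genes with signal on every array. The median log2 difference of the 56 genes was -0.08, with a range from -1.39 to 2.85, beside a median of 0.00 over all genes.

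By class, the 29 SET domain and lysine methyltransferase genes, DOT1L included, had 0 higher and 4 lower calls (EHMT2, SETDB1, SETD7 and SETD9), or 13.8%, beside 10.8% of all genes lower. The 18 demethylases had 3 higher calls (KDM6B, KDM7A and KDM1B) and 0 lower, or 16.7%, beside 5.53% of all genes higher. The 9 arginine methyltransferases had 1 higher call (CARM1) and 2 lower (PRMT5 and PRMT9), or 33.3%, beside 16.4% of all genes called. Medians of these 3 classes were close to each other, at -0.13, -0.03 and -0.06 on the log2 scale, and most genes of each class did not pass. The difference between classes was not tested.

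**Figure D1:**
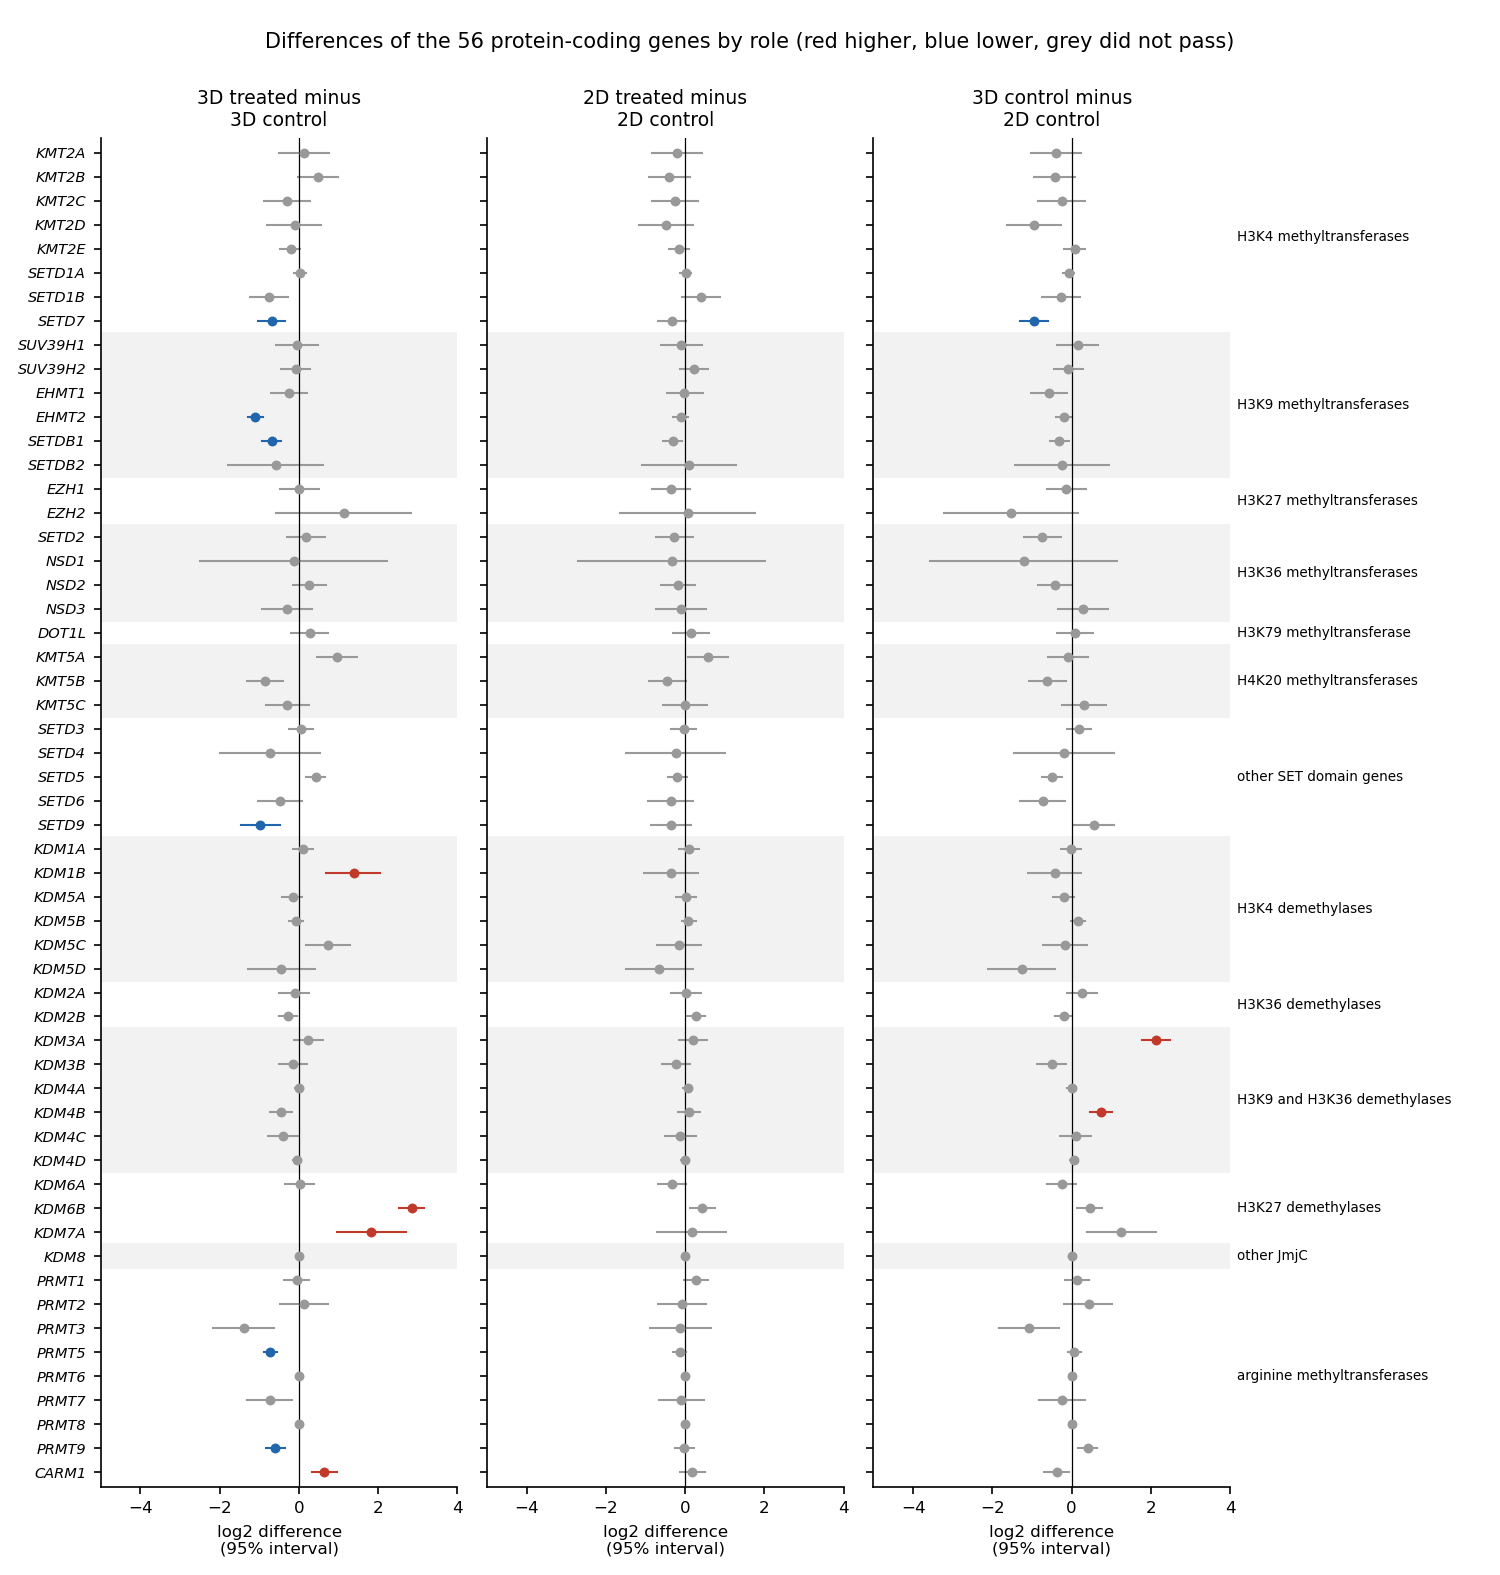
Log2 differences (x axis, points) with 95% intervals (lines) of the 56 protein-coding genes (y axis, grouped by target residue or enzyme class) for treated against control spheroids, treated against control monolayers, and control spheroids against control monolayers. Red marks the called higher genes, blue the called lower ones and grey the rest; the treated spheroids have 4 red and 6 blue points, the treated monolayers 0 and the control spheroids 2 red and 1 blue.

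KDM6B, which removes methyl groups from H3K27 and is also named JMJD3, had the largest difference of any of the 56 genes. Its level was 5.23 and 5.44 on the 2D control arrays, 5.70 and 5.82 on the 2D treated, 5.92 and 5.67 on the 3D control, and 8.64 and 8.64 on the 3D treated arrays. The treated spheroids stand clear of the other 6 arrays, which lie between 5.23 and 5.92. The log2 difference in 3D was 2.85 (standard error 0.12, 95% interval 2.53 to 3.17, limma adjusted p = 0.00214), a 7.20-fold increase. In 2D it was 0.43 (standard error 0.12, limma adjusted p = 0.416), and the difference between both responses, tested as an interaction, was 2.42 (95% interval 1.97 to 2.87, limma adjusted p = 0.014).

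KDM6B is also measured by 4 further probe sets, and all 5 rose in treated spheroids, by 1.83 to 2.85 on the log2 scale. All 5 also passed the test of the difference between the 3D and 2D responses, at 1.85 to 2.42. Of these, 1 was at 2.25 in both 2D groups and 2.26 in the 3D control, at the background, and at 4.60 in treated spheroids. The 3D call held under all 18 alternative settings of the fit, and the interaction call under 16 of 17, ending with replicate number as a block (limma adjusted p = 0.0557).

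KDM7A, a JmjC enzyme that acts on H3K9 and H3K27 and was formerly called JHDM1D, also rose in treated spheroids. Its level was 5.89 on both 2D control arrays, 5.63 and 6.48 on the 2D treated, 6.94 and 7.34 on the 3D control, and 9.07 and 8.87 on the 3D treated arrays. The groups step up from monolayers to control spheroids and again to treated spheroids, with no overlap between these 3 levels. The log2 difference in treated spheroids was 1.83 (standard error 0.33, 95% interval 0.96 to 2.71, limma adjusted p = 0.0403), a 3.56-fold increase. Between control spheroids and control monolayers it was 1.25 (95% interval 0.38 to 2.13), which did not pass (limma adjusted p = 0.117).

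A second KDM7A probe set, with a mean of 3.98 over the 8 arrays, rose by 3.38 in treated spheroids (limma adjusted p = 0.0121). The size of the KDM7A response therefore differs between its probe sets, while its direction does not. The call on the first probe set passed in 9 of 18 settings and in 2 of the 8 fits that each left out 1 array, those without a 2D treated array, where the other 6 gave limma adjusted p-values up to 0.157.

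KDM7A-DT, the noncoding RNA gene that starts beside KDM7A on the opposite strand, had a like profile. Its level was 5.55 and 5.27 on the 2D control arrays, 5.75 and 5.61 on the 2D treated, 5.91 and 5.96 on the 3D control, and 8.34 and 9.27 on the 3D treated arrays. Treated spheroids stand apart from all other arrays, although their own 2 values lie further apart than those of any other group. The log2 difference was 2.87 (standard error 0.33, 95% interval 1.98 to 3.76, limma adjusted p = 0.0152), a 7.30-fold increase. The call ended without 3D control replicate 1 or replicate 2 (limma adjusted p up to 0.0703) and when only the spheroid arrays were fitted. The other noncoding genes, KMT2E-AS1 and PRMT5-AS1, were not called in any comparison, with values that stay between 2.62 and 2.83 and between 2.24 and 2.55.

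The start sites of KDM7A and KDM7A-DT lie 278 bases apart and point away from each other, so that their promoter windows, taken from 250 bases before to 50 bases after each start, share 223 bases. The KDM7A window is shown because the 2 genes with this shared stretch rose together. It is the RefSeq sequence of the minus strand at chr7:140176934-140177233 of GRCh38.p14, 5′ to 3′ for KDM7A, and capitals mark the part that also belongs to the KDM7A-DT window.
KDM7A: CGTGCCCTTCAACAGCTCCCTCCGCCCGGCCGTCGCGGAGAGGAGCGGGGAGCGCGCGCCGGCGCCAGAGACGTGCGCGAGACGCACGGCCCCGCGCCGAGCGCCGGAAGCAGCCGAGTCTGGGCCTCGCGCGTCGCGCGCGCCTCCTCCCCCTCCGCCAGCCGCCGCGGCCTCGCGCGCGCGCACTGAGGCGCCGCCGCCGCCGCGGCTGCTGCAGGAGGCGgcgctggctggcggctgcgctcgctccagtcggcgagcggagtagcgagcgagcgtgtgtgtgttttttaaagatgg
The shared stretch holds ACGTG, the core of the hypoxia response element. Whether the genes share any control was not tested.

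KDM1B, a flavin-dependent demethylase of H3K4 that is also called LSD2, was the third eraser to rise. Its level was 6.52 and 6.38 on the 2D control arrays, 5.82 and 6.37 on the 2D treated, 6.26 and 5.78 on the 3D control, and 7.36 and 7.45 on the 3D treated arrays. The treated spheroids lie above the other 6 arrays, which range from 5.78 to 6.52. The log2 difference in 3D was 1.38 (standard error 0.25, 95% interval 0.69 to 2.06, limma adjusted p = 0.044), a 2.60-fold increase. A second KDM1B probe set, dim with a mean of 2.71 over the 8 arrays, rose by 0.75 (limma adjusted p = 0.0404), from 2.46 to 3.20. The first call sat close to the threshold and ended in each of the 8 fits that left out 1 array (limma adjusted p = 0.0539 to 0.147). The related KDM1A, or LSD1, was at 7.98 to 8.26 on all 8 arrays. A list of 6 LSD1 partner genes had 0 calls in any of the 4 comparisons, beside 16.4% of all genes in treated spheroids. Of these partners, RCOR2 was near the floor, at 2.36 to 2.75.

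**Figure D2:**
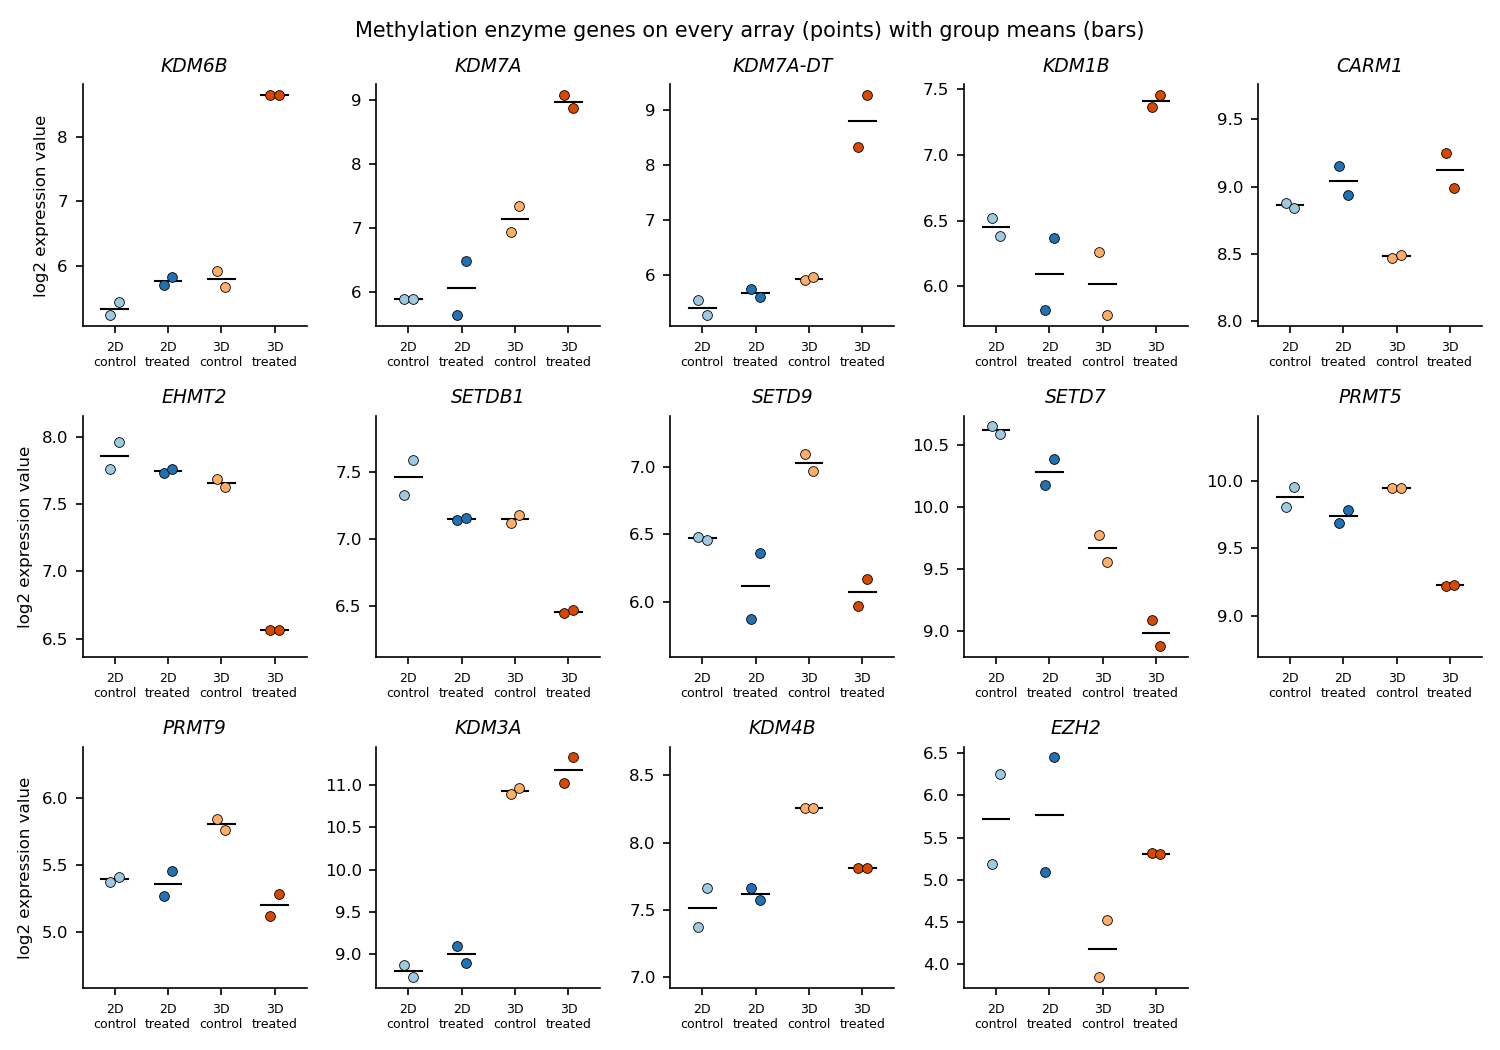
Log2 expression value (y axis) on each array (points) with the mean of 2 arrays per group (bars) for the 13 protein-coding and noncoding genes called in at least 1 comparison, and for EZH2; y axes differ between genes and do not start at 0. KDM6B, KDM7A, KDM7A-DT and KDM1B stand highest in treated spheroids, EHMT2, SETDB1, SETD7 and PRMT5 lowest there, and KDM3A lies at 8.73 to 9.10 in monolayers and 10.89 to 11.32 in spheroids.

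Among the writers, the probe sets that represent the 6 H3K9 methyltransferases had differences of -1.10 to -0.05 in treated spheroids, with a median of -0.42. Of these, 2 genes, EHMT2 and SETDB1, fell and 4 did not pass, which is 33.3% called, beside 10.8% of all genes lower. Among genes above the array median on every array, as all 6 were, 25.6% were called in either direction. Of all 56 genes, 33 had a negative difference. EHMT2, also known as G9a, places H3K9 mono- and dimethylation. Its level was 7.76 and 7.96 on the 2D control arrays, 7.73 and 7.76 on the 2D treated, 7.69 and 7.63 on the 3D control, and 6.56 on both 3D treated arrays. Only the treated spheroids are low, and the other 3 groups lie close together.

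The log2 difference of EHMT2 in 3D was -1.10 (standard error 0.07, 95% interval -1.29 to -0.90, limma adjusted p = 0.00508), a 2.14-fold decrease, and it was called under all 18 settings. Its 2D difference was -0.11 (limma adjusted p = 0.92), and the difference between both responses was -0.98 (95% interval -1.26 to -0.71, limma adjusted p = 0.0334). The value shared by both treated arrays means that their spread, and so the error of the difference, is not measured there. The 2 other EHMT2 probe sets had differences of -0.41 and 0.16 and did not pass (limma adjusted p = 0.487 and 0.411). The interaction call ended in 8 of 17 settings, among them those without either 2D treated or either 3D control array (limma adjusted p up to 0.0825).

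SETDB1, which trimethylates H3K9 with its KAP1 partner, was at 7.33 and 7.59 on the 2D control arrays, 7.14 and 7.16 on the 2D treated, 7.12 and 7.18 on the 3D control, and 6.45 and 6.47 on the 3D treated arrays. The treated spheroids are again lowest. The log2 difference was -0.69 (standard error 0.09, 95% interval -0.93 to -0.45, limma adjusted p = 0.0198), a 1.61-fold decrease. A second SETDB1 probe set had -0.19 and did not pass (limma adjusted p = 0.573), and the call ended without either 2D treated, either 3D control or either 3D treated array (limma adjusted p up to 0.092). EHMT1, the partner of EHMT2, ranged from 8.47 to 9.54, and SUV39H1, SUV39H2 and SETDB2 did not pass either. Of 9 partner genes of H3K9 methylation, 0 were called in any comparison, beside 16.4% of all genes in treated spheroids.

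SETD7, a monomethyltransferase of H3K4 and of nonhistone proteins, fell along both axes of the design. Its level was 10.65 and 10.59 on the 2D control arrays, 10.18 and 10.39 on the 2D treated, 9.78 and 9.56 on the 3D control, and 9.09 and 8.88 on the 3D treated arrays. The 4 groups do not overlap and stand in that order from highest to lowest. The difference in treated spheroids was -0.68 (standard error 0.13, limma adjusted p = 0.0456), and that between control spheroids and control monolayers was -0.95 (standard error 0.13, limma adjusted p = 0.0301), a 1.61-fold and a 1.93-fold decrease. Both use the 3D control arrays. Neither call passed in any of the 8 fits that left out 1 array (limma adjusted p = 0.0629 to 0.155 and 0.0587 to 0.104).

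SETD9, a SET domain gene of little-described function, was at 6.48 and 6.46 on the 2D control arrays, 5.87 and 6.36 on the 2D treated, 7.10 and 6.97 on the 3D control, and 5.97 and 6.17 on the 3D treated arrays. Control spheroids are highest, and treated spheroids overlap with treated monolayers. The log2 difference in 3D was -0.97 (standard error 0.19, limma adjusted p = 0.0488), which passed in 2 of 8 fits that left out 1 array, those without a 2D treated array (the other 6 had adjusted p-values up to 0.188). The remaining genes grouped with it as other SET domain genes, SETD3, SETD4, SETD5 and SETD6, did not pass on the probe sets that represent them.

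The large H3K4 methyltransferases that act within COMPASS complexes were not called on the probe sets that represent them. KMT2A, KMT2B, KMT2C, KMT2D, SETD1A and SETD1B had log2 differences between -0.75 (SETD1B) and 0.47 (KMT2B) in treated spheroids. KMT2E, a relative with a SET domain but no established H3K4 activity, which is plotted with this group, had -0.21 and did not pass. Of 13 genes for shared subunits and tethering factors of these complexes, 0 rose, 4 fell and 9 did not pass, which is 30.8% called. Of all genes, 10.8% were lower. Among genes above the array median on every array, as all 13 were, 25.6% were called in either direction. WDR5 and DPY30, core subunits, both had differences of -0.54 (limma adjusted p = 0.016 and 0.0448), the tethering factor MEN1 had -0.57 (limma adjusted p = 0.0325), and PSIP1, another, fell with a 95% interval of -1.37 to -0.62 (limma adjusted p = 0.0229).

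EZH2, the catalytic subunit of the Polycomb repressive complex 2 (PRC2) that methylates H3K27, did not pass in any comparison. Its level was 5.18 and 6.25 on the 2D control arrays, 5.09 and 6.45 on the 2D treated, 3.84 and 4.52 on the 3D control, and 5.32 and 5.30 on the 3D treated arrays. Control spheroids are lowest, treated spheroids fall between the arrays of the monolayers, and the arrays of both 2D groups lie more than 1 log2 unit apart. The difference in treated spheroids was 1.13 with a standard error of 0.63 and a 95% interval of -0.57 to 2.83 (limma adjusted p = 0.501). Over the 18 settings the limma adjusted p stayed between 0.182 and 0.89.

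EZH1, the other H3K27 methyltransferase, was at 7.03 to 7.72 on all arrays, with a 3D difference of 0.01. Of 9 PRC2 partner genes, 1 rose, 2 fell and 6 did not pass in treated spheroids, beside 16.4% of all genes called. Among genes above the array median on every array, as all 9 were, 25.6% were called. JARID2, which guides PRC2 to its targets, had a difference of 1.28 (limma adjusted p = 0.0147), while EED, a core subunit, had -0.61 and MTF2, a Polycomb-like subunit, -0.77 (limma adjusted p = 0.0278 and 0.0407).

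The H3K36 methyltransferases SETD2, NSD1, NSD2 and NSD3 had differences of -0.30 to 0.26 in treated spheroids and were not called. The probe set that represents NSD1 was at 3.49 and 5.56 on the 2D control arrays. Its 3D difference had a standard error of 0.88 and a wide 95% interval, -2.49 to 2.23. Further NSD1 probe sets, with means of 3.41 and 2.94, had 3D differences of 0.04 and -0.01 (standard errors 0.18 and 0.16). DOT1L, the only H3K79 methyltransferase, was dim at 2.74 to 3.44, with a difference of 0.27. Of its 6 partner genes, 2 fell and 4 did not pass, which is 33.3% called, beside 16.4% of all genes. Among genes above the array median on every array, as all 6 were, 25.6% were called. MLLT3, which brings DOT1L to acetylated chromatin, had -1.21 (limma adjusted p = 0.00363), with an interaction of -1.14 (limma adjusted p = 0.0213), and AFF1, a scaffold of the elongation complex, had -0.73 (limma adjusted p = 0.00438).

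Among the H4K20 methyltransferases, the probe sets that represent KMT5A and KMT5B came close to the threshold without passing it. KMT5A, which places the first methyl group, was at 7.38 and 7.23 in control spheroids and 8.34 and 8.18 in treated ones, a difference of 0.96 (95% interval 0.45 to 1.47, limma adjusted p = 0.0522). KMT5B, which adds further methyl groups, was at 8.55 and 8.76 in control and 7.94 and 7.67 in treated spheroids, a difference of -0.85 (95% interval -1.31 to -0.39, limma adjusted p = 0.0548). On these probe sets the 3D control and 3D treated arrays do not overlap. Further probe sets had -0.01, 0.39 and 0.25 for KMT5A and -0.91 and 0.87 for KMT5B, and none of them passed (lowest limma adjusted p = 0.258), so the direction of neither gene is settled. KMT5C had a difference of -0.29.

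Of the arginine methyltransferases, PRMT5, the main source of symmetric dimethylarginine, was called in most settings of the fit. Its level was 9.81 and 9.96 on the 2D control arrays, 9.69 and 9.79 on the 2D treated, 9.95 and 9.95 on the 3D control, and 9.22 and 9.23 on the 3D treated arrays. Treated spheroids alone are low. The log2 difference was -0.73 (standard error 0.06, 95% interval -0.89 to -0.56, limma adjusted p = 0.00804), a 1.66-fold decrease. Its other 2 probe sets fell by 0.82 and 0.42 (limma adjusted p = 0.0187 and 0.0367), and the call held in all 8 fits that left out 1 array.

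PRMT9, which acts on a splicing factor, was at 5.37 and 5.41 on the 2D control arrays, 5.27 and 5.45 on the 2D treated, 5.84 and 5.76 on the 3D control, and 5.12 and 5.28 on the 3D treated arrays. Its 3D difference was -0.60 (standard error 0.09, limma adjusted p = 0.0256), and treated spheroids overlap with treated monolayers. CARM1, or PRMT4, which methylates histone H3 and coactivators asymmetrically, went the other way. It was at 8.88 and 8.84 on the 2D control arrays, 9.15 and 8.94 on the 2D treated, 8.47 and 8.49 on the 3D control, and 9.25 and 8.99 on the 3D treated arrays.

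Control spheroids are the low group for CARM1, and treated spheroids overlap with treated monolayers. The 3D difference was 0.64 (standard error 0.12, 95% interval 0.32 to 0.95, limma adjusted p = 0.0444), a 1.55-fold increase. The CARM1 call passed in 1 of 8 fits that left out 1 array, that without 3D treated replicate 2, and the others had limma adjusted p-values up to 0.168. The PRMT9 call passed in 3 of 8, and ended without either 2D control, either 3D control or the first 3D treated array (limma adjusted p up to 0.111).

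PRMT3, which methylates a ribosomal protein, had the largest negative difference of the 56 genes in treated spheroids but did not pass. It was at 9.59 and 9.65 on the 2D control arrays, 9.36 and 9.64 on the 2D treated, 8.67 and 8.42 on the 3D control, and 7.53 and 6.78 on the 3D treated arrays. Spheroids are below monolayers and treated spheroids below control ones, without overlap. The 3D difference was -1.39 (standard error 0.29, 95% interval -2.16 to -0.63, limma adjusted p = 0.0568). PRMT1, the main asymmetric arginine methyltransferase, was at 11.54 to 11.95 on all arrays, PRMT6 was at the floor of 2.23 on all of them, and PRMT2, PRMT7 and PRMT8 did not pass. Of 5 measured PRMT partners, 1 rose and 4 did not pass, beside 5.53% of all genes higher. The called gene was the antiproliferative BTG1, which binds PRMT1, with a difference of 0.76 (limma adjusted p = 0.0173).

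**Figure D3:**
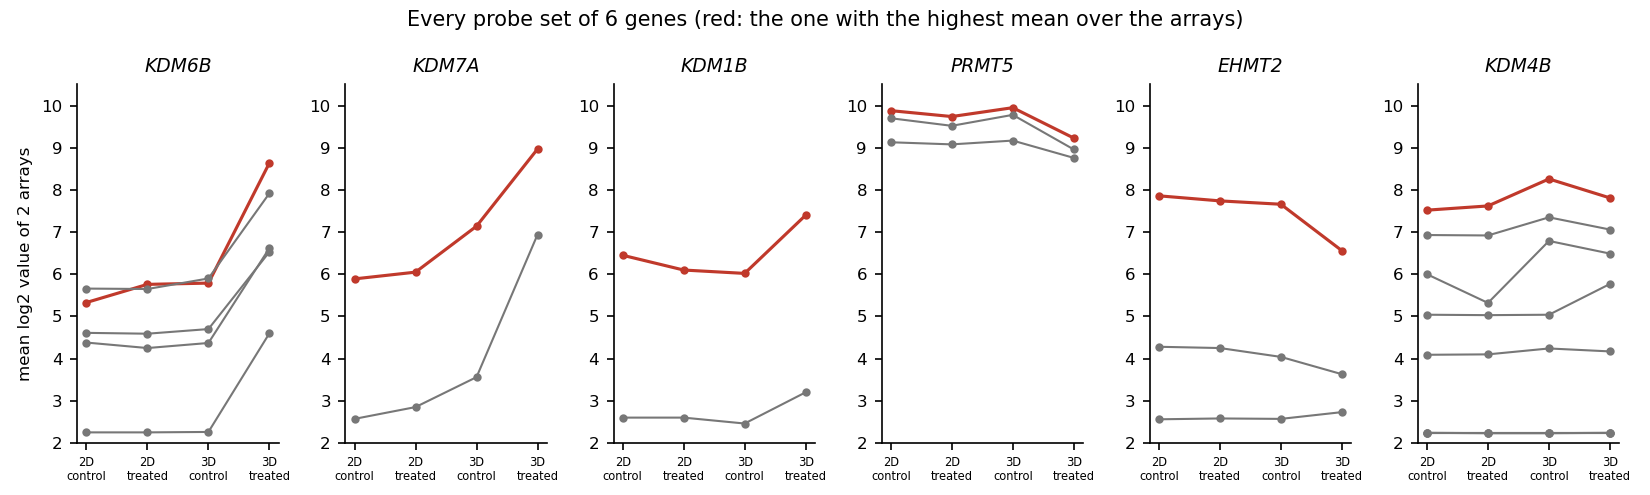
Mean log2 value of 2 arrays (y axis) in each group (x axis) for every probe set of 6 genes, with the probe set that represents the gene in red and the others in grey. All KDM6B, KDM7A and KDM1B probe sets are highest in treated spheroids and all PRMT5 probe sets lowest, whereas those of EHMT2 and KDM4B differ in direction.

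In monolayers, the same cytokines gave 0 calls among the 56 genes, beside 0.197% of all genes (0.121% higher and 0.0759% lower), and 4 of the 56 had an unadjusted limma p under 0.05, beside 2124 of all 19775 genes. Their log2 differences ran from -0.65 to 0.58, with a median of -0.09. A missing call in monolayers does not show that the responses differ, and the test of the difference between the 3D and 2D responses called 1 gene higher, KDM6B, and 1 lower, EHMT2. These are 3.57% of the 56 genes, beside 3.26% of all genes (1.32% higher and 1.94% lower). PRMT5 came next to the threshold, with a difference between responses of -0.58 (95% interval -0.82 to -0.35, limma adjusted p = 0.0619), and KDM7A had 1.67 (limma adjusted p = 0.187). KDM1B had 1.73 and KDM7A-DT 2.60, which did not pass either (limma adjusted p = 0.109 and 0.0854).

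Without cytokines, spheroids differed from monolayers in 2 erasers and 1 writer. Between 3D and 2D controls, 2 of the 56 genes were higher, KDM3A and KDM4B, and 1 was lower, SETD7, which is 5.36%, beside 10.7% of all genes (5.77% higher and 4.9% lower). The median log2 difference was -0.15, with a range from -1.53 to 2.13. KDM3A and KDM4B, JmjC demethylases of H3K9, are both known targets of hypoxia-inducible factor, which acts when oxygen is low. Oxygen was not measured on these arrays.

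KDM3A was at 8.87 and 8.73 on the 2D control arrays, 9.10 and 8.90 on the 2D treated, 10.89 and 10.96 on the 3D control, and 11.02 and 11.32 on the 3D treated arrays. The 4 spheroid arrays stand clear above the 4 monolayer arrays. The difference between controls was 2.13 (standard error 0.13, 95% interval 1.77 to 2.49, limma adjusted p = 0.00828), a 4.36-fold increase, called in 17 of 18 settings. The cytokine responses of KDM3A were 0.24 in 3D and 0.20 in 2D, and neither passed (limma adjusted p = 0.485 and 0.92).

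KDM4B was at 7.37 and 7.66 on the 2D control arrays, 7.66 and 7.57 on the 2D treated, 8.26 and 8.26 on the 3D control, and 7.81 and 7.81 on the 3D treated arrays. Both spheroid groups lie above the monolayers, the control spheroids most. The difference between controls was 0.74 (standard error 0.11, 95% interval 0.46 to 1.03, limma adjusted p = 0.0326), a 1.67-fold increase. It passed in 2 of 8 fits that left out 1 array, those without a 2D control array, and the other 6 had limma adjusted p-values up to 0.125.

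KDM4B has 8 probe sets, and these differ in direction. In treated spheroids the probe set that represents the gene had -0.45 (limma adjusted p = 0.0776), while another, with a mean of 5.22, had 0.73 (limma adjusted p = 0.00999) and showed no difference between the controls (0.00). The other probe sets were not called in 3D, and 3 of the 8 were at the background. Probe sets of 1 gene may report different transcripts or share sequence with other genes, which was not tested.

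Other genes of these families did not pass in any comparison on the probe sets that represent them. These were KDM3B, KDM4A, KDM4C, KDM2A, KDM2B, KDM5A, KDM5B, KDM5C, KDM5D, KDM4D, KDM8 and KDM6A. A further KDM5A probe set, with a mean of 5.22, had -0.95 in treated spheroids and passed (limma adjusted p = 0.0303). The probe set that represents KDM4A was at 6.18 on 7 of 8 arrays and that of KDM8 at 2.87 on 7 of 8, which leaves almost no spread to test, and a second KDM4A probe set had a 3D difference of 0.13 (standard error 0.29). KDM5C had a difference of 0.73 in treated spheroids. KDM6A, the relative of KDM6B that acts on the same residue, was at 7.29 to 7.87 on all 8 arrays, with differences of 0.02 in 3D and -0.33 in 2D.

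The promoter windows of KDM4B and KDM3A are shown because these 2 demethylases were the ones higher in control spheroids. They are RefSeq sequences of GRCh38.p14, plus strand, at chr19:4968863-4969162 for KDM4B and chr2:86441211-86441510 for the second of 2 KDM3A starts. Capitals mark ACGTG on either strand in KDM4B, where the matches overlap in CACGTG, and the AP-1 motif TGANTCA in KDM3A.
KDM4B: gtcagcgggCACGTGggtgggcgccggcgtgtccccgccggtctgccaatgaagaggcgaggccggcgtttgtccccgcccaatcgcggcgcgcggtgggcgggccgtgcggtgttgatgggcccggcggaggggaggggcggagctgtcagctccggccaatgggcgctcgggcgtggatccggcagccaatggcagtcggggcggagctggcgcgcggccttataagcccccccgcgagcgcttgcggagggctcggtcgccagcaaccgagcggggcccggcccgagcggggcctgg
KDM3A: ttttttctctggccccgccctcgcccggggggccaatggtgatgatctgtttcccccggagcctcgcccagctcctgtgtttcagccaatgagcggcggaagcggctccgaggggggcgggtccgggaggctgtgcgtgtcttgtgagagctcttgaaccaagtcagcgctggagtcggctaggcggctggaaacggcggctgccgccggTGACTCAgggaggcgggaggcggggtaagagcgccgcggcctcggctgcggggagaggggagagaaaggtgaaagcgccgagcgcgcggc
Neither KDM3A window holds ACGTG. Searched on both strands, at least 1 window held ACGTG in 7 of the 13 called genes, in 16 of the 56 genes of the 59 with a window and in 24.9% of 27305 genes, TGANTCA in 1 of 13 and 9.37%, and an NF-κB type motif in 0 of 13 and 6.85%. KDM7A and KDM7A-DT are 2 of the 7 and hold it in the stretch that they share. A match is a run of letters and not a measured binding site, and the motifs were chosen with the called genes known.

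Around these enzymes stand the S-adenosylmethionine cycle, which supplies the methyl donor, and other JmjC and SET domain proteins. In the S-adenosylmethionine cycle, 1 of 11 measured genes rose, 4 fell and 6 did not pass in treated spheroids, and no test of this or the next lists against the 16.4% of all genes called was made. MAT2A, which makes S-adenosylmethionine, was at 11.49 and 11.69 on the 2D control arrays, 11.16 and 11.30 on the 2D treated, 10.53 and 10.61 on the 3D control, and 9.26 and 8.79 on the 3D treated arrays, a 3D difference of -1.54 (limma adjusted p = 0.0159). The treated spheroids are lowest and do not overlap with any other group. Nicotinamide N-methyltransferase, NNMT, which consumes the methyl donor, had -1.03 (limma adjusted p = 0.0223), and MTAP, which salvages a by-product of polyamine synthesis, had 1.09 (limma adjusted p = 0.021). The probe sets of MTAP and MAT2A have names ending in _s_at, a kind that can share sequence with other transcripts.

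Among 11 other JmjC proteins, 3 rose, 2 fell and 6 did not pass. All 11 were above the array median on every array, and 25.6% of such genes were called. JMJD6, a hydroxylase of lysines, was at 9.67 and 9.69 on the 2D control arrays, 9.95 and 9.66 on the 2D treated, 11.08 and 11.08 on the 3D control, and 12.11 and 12.37 on the 3D treated arrays. It steps up with spheroid growth (1.40, limma adjusted p = 0.0167) and again with treatment (1.16, limma adjusted p = 0.0151), 2 differences that share the 3D control arrays. RIOX2, a ribosomal oxygenase, had -1.28 in treated spheroids (limma adjusted p = 0.014). Of 11 further lysine methyltransferases, 1 fell, SETMAR, with -1.30 (limma adjusted p = 0.0146), and 10 did not pass.

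Markers of cell state moved with the same treatment. Of the 8 A549 markers 7 fell in treated spheroids, with a median of -0.89, beside 10.8% of all genes lower. They were the epithelial genes KRT8, KRT18, EPCAM and CDH1 and the enzyme genes NQO1, AKR1C1 and ALDH1A1. The log2 of the markers' summed levels went from 16.96 to 16.98 on the 3D control arrays to 16.12 to 16.19 on the 3D treated ones. Of 10 proliferation genes 1 fell, PCNA, by 1.10 (limma adjusted p = 0.00515), and 9 did not pass, with a list median of -0.15. The list's summed levels were 12.79 to 12.94 on the 3D control and 11.79 to 11.90 on the 3D treated arrays. PCNA dominates these sums, at 12.83 and 12.67 in control and 11.70 and 11.60 in treated spheroids. The leukocyte list had 1 call, CD14, which was lower, and the endothelial and fibroblast lists had 0. The part of cell state or growth in the enzymes' differences was not tested.

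**Figure D4:**
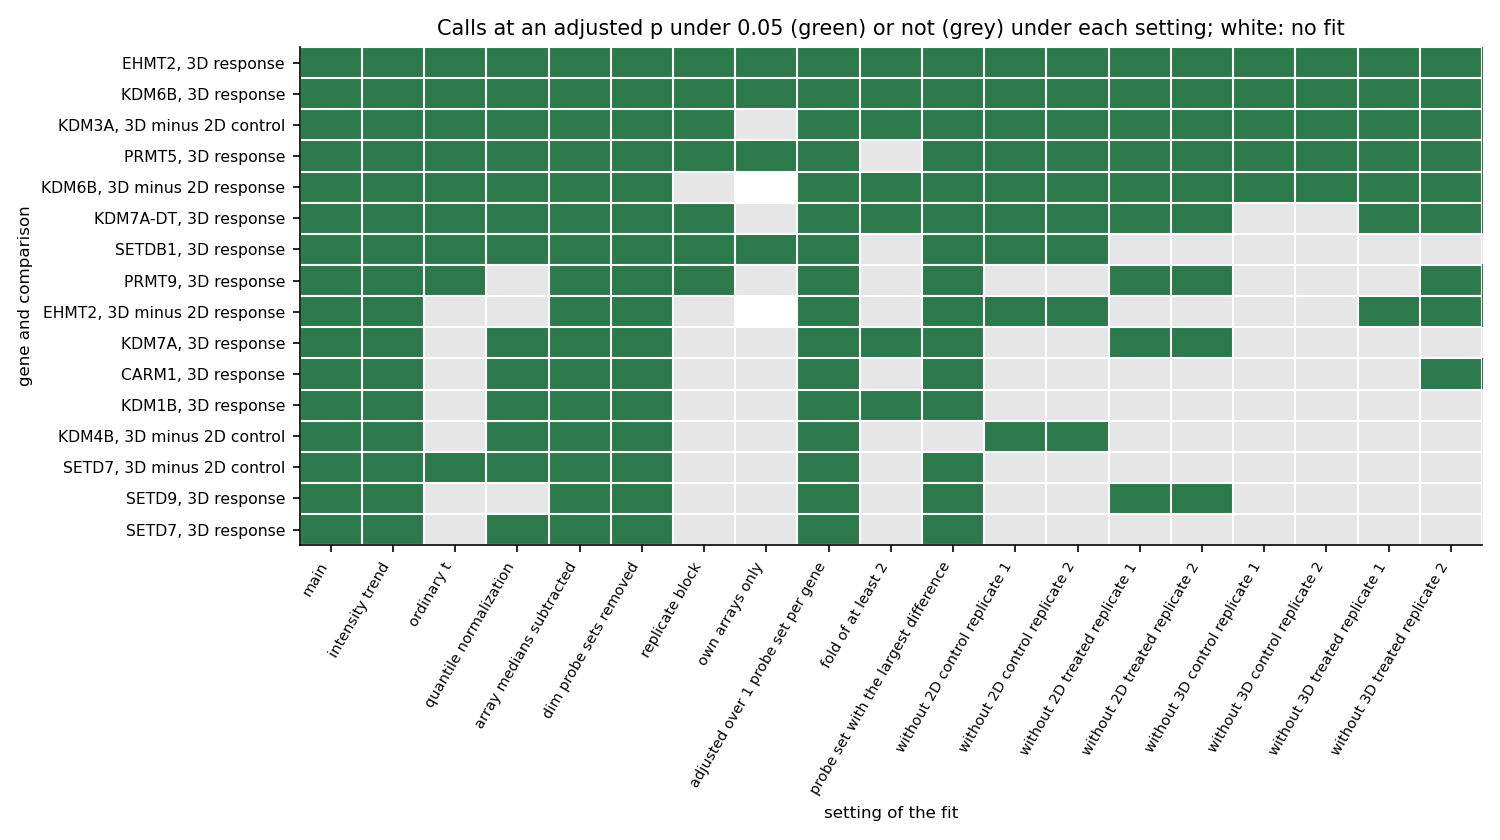
Each row is a gene and comparison called in the reported fit and each column a setting of the fit, with green for an adjusted p under 0.05 (and a fold of at least 2 in the column of that name), grey for none and white where no fit was possible. KDM6B and EHMT2 are green in all columns for the 3D response, PRMT5 and KDM3A in all but 1, and the lower rows turn grey for most arrays left out.

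The calls differed in how many of the alternative settings kept them. KDM6B and EHMT2 in treated spheroids were called in 18 of 18 settings, and PRMT5 in treated spheroids and KDM3A in control spheroids in 17 of 18. KDM7A-DT was called in 15, SETDB1 in 11, PRMT9 in 10 and KDM7A in 9. CARM1, KDM1B, SETD9 and KDM4B were called in 7 settings, and SETD7 in 6 for the 3D response and 7 for the controls.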

How the data were processed

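A549 spheroids and monolayers, treated or not, were profiled with Affymetrix U133 plus 2.0 arrays, of which 8 were made, 2 for every group. The authors made the deposited log2 values with GCRMA, which subtracts background, normalizes and summarizes probe sets. The version of GCRMA is not given in the sources used here, and the submitters' processing notes name limma 3.6.9. Of 54675 rows, 62 controls were left out and 54613 probe sets tested, of which 41091 name 1 gene in the platform annotation, 1801 name several and 11721 are unnamed here. Updating symbols through Entrez numbers changed 0 of them. GCRMA leaves many dim probe sets at the same value on several arrays, so small differences near 2.23 are not resolved, and between 3 and 8 of the 56 enzymes have identical values on both arrays of a group.

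Differences were fitted here with limma 3.58.1 in R 4.3.3 (lmFit, contrasts.fit and eBayes; 4 group means, all 8 arrays, 4 residual degrees of freedom), and p-values were adjusted by the Benjamini-Hochberg method across the 54613 probe sets, with a threshold of 0.05. Groups come from the sample labels. The fit was tested on simulated data. Fits under 18 alternative settings (17 for the interaction) were compared, among them leaving out each array. The array left alone in its group is then taken to have the spread of the remaining groups. Tables and plots used Python 3.11.15, pandas 2.3.3 and matplotlib 3.10.9. Precision is limited by the 2 arrays of each group.

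The members, gene lists and tests were chosen with earlier results of these data known. Named with every array's value are all members called in at least 1 comparison, and EZH2, KDM7A, KDM1B and EHMT2, which the study names. Up to 3 called genes with the largest differences are named per other list, and PRMT3, KMT5A, KMT5B, WDR5, DPY30, MEN1 and PSIP1 were named or described after their values were seen. Of the 178 probe sets of the members, those with names ending in _s_at or _x_at can share sequence with other transcripts, and 22 and 2 of the 56 representing probe sets are of these kinds. Promoter windows are those of a RefSeq table of GRCh38.p14. Histone modification data and ASH1L were not analysed here.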

Additional observations from a re-analysis of the deposited data

Results flagged for a closer look

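The response to TNF and TGFβ differed between spheroids and monolayers for 3 of the enzyme genes, by limma's interaction contrast at an adjusted p under 0.05 over all probe sets. This counts a gene through any of its probe sets. On the probe sets that represent the genes it was 2 of 56, and on the probe set with the largest difference 3 of 56, beside 3.26% and 3.9% of all genes, and with the replicate block 0 of 56 passed. All 5 KDM6B probe sets are among them, with differences between the log2 responses of 2.42, 2.04, 1.85, 2.38 and 2.34. EHMT2 had a difference of -0.98 on the probe set that represents it, and its 2 other probe sets had -0.37 and 0.14, which did not pass. For KDM4B, 1 of 8 probe sets passed, with 0.74, whereas the probe set that represents the gene had -0.55 and did not pass (limma adjusted p = 0.179).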

How the results depend on the processing

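Of the 10 calls in treated spheroids (4 higher and 6 lower), 5 passed with ordinary t statistics, 5 under the replicate block and 4 at a fold of at least 2, and fitting only the spheroid arrays gave 6 calls (KDM4B and SETD1B among them), beside 12.5%, 10.6%, 8.13% and 2.68% of all genes. Quantile normalization gave 5 higher and 4 lower. With array medians subtracted 17 of the 56 genes were called (6 higher and 11 lower) and with dim probe sets removed 18 of 53, beside 21.3% and 39.2% of all genes. Each fit that left out 1 array gave fewer calls than the reported fit. The share of all genes called fell in most of these fits and rose without the first 3D treated array. For monolayers leaving out 1 array gave 0 to 1 calls, and the other settings 0. For the difference between responses, 2 calls became 1 with ordinary t statistics, quantile normalization or a fold of at least 2. The shares of all genes there were 1.5%, 3.2% and 1.92%. With array medians subtracted 5 were called (1 higher and 4 lower, beside 1 and 1), beside 7.2% of all genes. Without dim probe sets 7 of 53 were called and with the block 0, beside 16.7% and 1.14% of all genes. Leaving out 1 array moved the count in both directions. For control spheroids against control monolayers, 3 calls became 5 with array medians subtracted, beside 14.5% of all genes. Without dim probe sets 14 of 53 were called, beside 31.3% of all genes. The block gave 1, a fold of at least 2 gave 1 and a fit of these 4 arrays 0, beside 4.56%, 4.39% and 1.28%. Leaving out 1 array moved this count in both directions as well.

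The median difference of the 56 genes moved from -0.08 to -0.13 in treated spheroids and from -0.01 to -0.08 for the difference between responses with array medians subtracted, and from -0.15 to -0.04 between controls with quantile normalization. Leaving out 1 array gave medians of -0.08 to 0.00, -0.15 to 0.00, -0.09 to 0.00 and -0.15 to -0.05 for the 3D, 2D, interaction and control comparisons. KDM4B turned direction on its probe set with the largest difference, to 0.73 in treated spheroids and 0.74 for the difference between responses. The causes were not tested, other than that fewer tests follow from removing dim probe sets. Arrays with the same replicate number shared deviations in 1 of 6 pairs of groups (correlation 0.283 between both 2D groups, and -0.015 to 0.09 otherwise, over 28188 probe sets). The numbers thus do not pair the samples across all 4 groups. Whether they pair the arrays of both 2D groups was not settled.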

Other observations

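Several of the enzymes have a second probe set that was called where the one representing the gene was not. In treated spheroids these were DOT1L (0.60, limma adjusted p = 0.0176), KDM4B (0.73, adjusted p = 0.00999), KDM5A (-0.95, adjusted p = 0.0303) and SETD5 (0.65, adjusted p = 0.0253), and between control spheroids and control monolayers KMT2D (-0.47, adjusted p = 0.0378) and PRMT2 (0.86, adjusted p = 0.0458). Beside these, the representing probe sets had 0.27, -0.45, -0.16 and 0.43 in treated spheroids, and -0.94 and 0.43 between the controls. The sign was opposite in KDM4B and the same in the other 5 genes.

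Between control spheroids and control monolayers, 10.7% of all genes were called. Called were 2 of 9 PRC2 partners, 2 of 5 PRMT partners, 1 of 13 COMPASS partners and 1 of 6 DOT1L partners (AFF1, lower). The S-adenosylmethionine cycle had 3 of 11, the further lysine methyltransferases 1 of 11 and the other JmjC proteins 1 of 11. The partners of H3K9 methylation and of LSD1 had 0. PHF1, a Polycomb-like PRC2 subunit, had a log2 difference of 1.75 (limma adjusted p = 0.0258) and EED 0.58 (limma adjusted p = 0.0416). CLNS1A, which brings substrates to PRMT5, had 0.86 (limma adjusted p = 0.0182), BTG1 0.99 (limma adjusted p = 0.0163) and SMYD2, another lysine methyltransferase, 0.53 (limma adjusted p = 0.037). The hydrolase AHCY, which clears the by-product of methylation, had 0.55 (limma adjusted p = 0.0118), whereas AHCYL1, a related gene, had -0.64 (limma adjusted p = 0.0241) and MTRR, the methionine synthase reductase, -0.82 (limma adjusted p = 0.0436). The menin gene MEN1 had -0.81 (limma adjusted p = 0.0226).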
